A study of Mus musculus with 6 samples.

Results

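Steap4, S1pr3, Cp, Cd109, Ptx3, Sphk1, Aspg, Tm4sf1 and B3gnt5 are 9 genes named in lists of transcripts that astrocytes make after injury, and most of their products are released from the cell or sit in its membranes. They were chosen by symbol, with earlier results of these data known. Each had 1 transcript cluster (the probe group of a gene on the array) that carried no other symbol, and they are 9 of the 29458 genes measured in this way. In stroke arrays, 3 of the 9 rose (limma adjusted p under 0.05), beside 0.421% of all 29458 genes called higher. The 3 were the sphingosine 1-phosphate receptor gene S1pr3 at 3.60-fold, the surface protein gene Tm4sf1 at 2.69-fold and the secreted pentraxin gene Ptx3 at 2.30-fold. All 3 control values of S1pr3 and of Tm4sf1 exceeded the medians of their arrays. Those of Ptx3 were near or below the medians, so its fold is a ratio of signals as measured. None of the 9 genes fell, and the other 6 did not pass the threshold. In the 6 fits that left out 1 array, S1pr3 passed in 3, Tm4sf1 in 2 and Ptx3 in 0.

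The RNA came from mice aged 2 to 3 months that carried the CD11brGFP transgene, in which the CD11b promoter, used by microglia and the rest of the myeloid lineage, drives RPL10a, a ribosomal protein, fused to Flag and EGFP. Stroke mice were sampled 24 h after tMCAO (transient occlusion of the middle cerebral artery), a model in which an artery of the brain is closed and then reopened. Control mice were sham-operated and carried the same transgene. Messenger RNA bound to tagged ribosomes was isolated by translating ribosome affinity purification (TRAP) and read on MoGene-2_0-st arrays, 3 per group. The labels give 6 mice per group without saying which mice went on which array, and they disagree on whether both sexes were used.

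Astrocytes support neurons and vessels in healthy brain, and after injury they switch on a programme of cytoskeletal, secreted and surface proteins known as reactive astrogliosis. In published lists from mouse, Steap4, S1pr3, Cp and Aspg belong to the genes induced by several kinds of injury (pan-reactive), and Cd109, Ptx3, Sphk1, Tm4sf1 and B3gnt5 to those induced mainly by ischaemia. Most of these genes are also active outside astrocytes, for example in endothelial cells, pericytes, fibroblasts or leukocytes. Sphk1 and Aspg encode enzymes that work largely in the cytosol, so the description as secreted or membrane proteins does not hold for them.

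The promoters of the 3 genes that rose, and of Steap4, whose single promoter matched 3 of the 4 motifs searched, more than any other promoter of the members, show what lies next to the start sites. Sequences are from RefSeq on GRCm38.p6, cover the 250 bases before an annotated transcript start, run 5′ to 3′ on the gene's strand, and have motif matches in capitals. They lie at chr13:51408368-51408617, plus strand, for S1pr3; chr3:57301989-57302238, minus strand, for Tm4sf1; chr3:66219637-66219886, plus strand, for Ptx3; and chr5:7960222-7960471, plus strand, for Steap4.
S1pr3: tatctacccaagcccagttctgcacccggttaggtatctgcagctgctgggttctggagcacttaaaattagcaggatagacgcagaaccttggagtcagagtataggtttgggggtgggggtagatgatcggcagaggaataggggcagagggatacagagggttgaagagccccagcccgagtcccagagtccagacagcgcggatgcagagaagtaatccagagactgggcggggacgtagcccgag
Tm4sf1: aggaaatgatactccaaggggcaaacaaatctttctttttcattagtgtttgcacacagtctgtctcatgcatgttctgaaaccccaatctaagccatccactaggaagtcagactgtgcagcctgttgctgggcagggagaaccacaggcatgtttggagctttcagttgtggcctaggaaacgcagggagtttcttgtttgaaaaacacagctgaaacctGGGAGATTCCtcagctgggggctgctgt
Ptx3: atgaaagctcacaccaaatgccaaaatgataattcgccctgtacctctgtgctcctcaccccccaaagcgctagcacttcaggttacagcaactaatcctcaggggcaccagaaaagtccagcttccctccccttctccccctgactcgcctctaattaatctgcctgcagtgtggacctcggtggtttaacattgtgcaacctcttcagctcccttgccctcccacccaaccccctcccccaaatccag
Steap4: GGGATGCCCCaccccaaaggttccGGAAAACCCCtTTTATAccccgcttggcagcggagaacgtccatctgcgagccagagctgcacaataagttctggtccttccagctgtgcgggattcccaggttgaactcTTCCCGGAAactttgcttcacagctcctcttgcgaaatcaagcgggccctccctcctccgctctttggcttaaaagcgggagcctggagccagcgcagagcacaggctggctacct

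Both strands were searched for TTCNNNGAA (STAT factors), TGANTCA (AP-1), TATAAA (the TATA box) and the NF-kB consensus. None of the 4 had a match in the 250 bases of S1pr3 or of Ptx3. Tm4sf1 had 1 match to the NF-kB consensus, 28 to 19 bases before the start. Steap4 had 1 STAT match, TTCCCGGAA, from 116 to 108 bases before the start, 1 TATA match and 2 NF-kB matches. Sphk1, with 5 annotated starts, had a STAT match (TTCTCGGAA) and an AP-1 match (TGAGTCA) in 2 overlapping promoters that cover the same bases, and in another promoter a TATA match, 31 to 26 bases before the start, and an NF-kB match. Cp had an AP-1 match (TGATTCA) in 1 promoter and 2 overlapping TATA matches, 27 to 20 bases before the start, in another. Aspg and B3gnt5 had no match, and Cd109 is not in the table. Of the 13 promoters of the 8 genes, 3 held each of the 4 motifs, and these belonged to 2 genes for STAT, 2 for AP-1, 3 for TATA and 3 for NF-kB. Over all 32851 promoters of this length in the RefSeq table, 7.02% held the STAT motif, 6.75% the AP-1 motif, 12.4% the TATA motif and 7.25% the NF-kB consensus. These matches are letters in a sequence and were not measured as binding sites.

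Signal is given on the authors' log2 scale, on which 1 unit is a 2-fold step, and differences are stroke minus control. The arrays numbered 2 in both groups stood apart from the other 4 on the first principal component (45.1% of the variance), at 34.6 in stroke and 48.9 in control, against -22.9 to -19.5 in the other stroke arrays and -26.6 to -14.4 in the other control arrays. Results are therefore also given without both of these arrays. Array medians lay between 5.23 and 5.35, and no detection call was used, so a signal near or below that range was not shown to be above background. The labels call the 3 arrays of a group biological replicates without saying whether an array holds 1 mouse or a pool. The limma p-values set each difference against the spread between these samples, moderated by the spread of all genes. How many mice that spread covers is not known, and 3 arrays a group limit the precision of every value.

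The tagged cell type and the astrocyte label were both set against markers. The labels used here name no tissue, and 8 neuron markers had a mean signal of 11.10 to 11.28 in stroke arrays and 11.05 to 11.25 in control arrays. Itgam, the gene of CD11b, had a mean of 7.01 ± 0.07 in stroke and 6.17 ± 0.40 in control (SD, n = 3 arrays each; limma adjusted p = 0.276). Rpl10a, whose protein carries the tag, stood at 10.42 ± 0.06 in stroke and 10.34 ± 0.15 in control (adjusted p = 0.9998). Of 9 markers of homeostatic microglia, 0 rose and 0 fell (limma; 3 higher and 1 lower at an unadjusted p under 0.05). Of 13 markers of resting astrocytes, 0 rose and 0 fell (limma; 5 higher at an unadjusted p under 0.05), 12 had a higher mean in stroke, and the list's mean signal was 9.08 to 9.23 in stroke arrays and 8.76 to 8.94 in control arrays. Astrocyte transcripts were thus above the array medians in RNA drawn from CD11b-driven ribosomes, and which cells the 9 genes' signal came from was not measured. In such RNA, more cells of a type and more RNA per cell cannot be told apart.

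S1pr3 encodes a G-protein-coupled receptor for sphingosine 1-phosphate, a lipid signal that guides vessel tone and immune cell traffic. Its signal was 8.53, 8.24 and 8.42 in the 3 stroke arrays, against 6.49, 6.25 and 6.92 in the 3 control arrays. The groups were well apart, with the lowest stroke array 1.32 above the highest control array. The difference was 1.85 ± 0.19 (SE; 95% interval 1.41 to 2.29; limma adjusted p = 0.0112), the largest measured among the 9 genes. The adjusted p was 0.0812, 0.0627 and 0.0642 without control array 1, stroke array 1 and stroke array 3, and 0.0304 without both arrays numbered 2. The gene lies on chromosome 13 at 51408618 to 51422797 (GRCm38.p6).

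Tm4sf1 encodes a small membrane protein with 4 membrane-spanning segments that is abundant in endothelial cells. It measured 8.05, 7.55 and 7.74 in stroke arrays, against 6.34, 6.16 and 6.55 in control arrays. All stroke arrays were at least 1.002 above all control arrays. The difference was 1.43 ± 0.18 (SE; 95% interval 1.02 to 1.83; limma adjusted p = 0.0193). It did not pass without control array 1 (adjusted p = 0.122), control array 3 (0.0577), stroke array 1 (0.0910) or stroke array 3 (0.100). With all transcript clusters in 1 fit its adjusted p was 0.0615, and without both arrays numbered 2 it was 0.0443. The gene is annotated on chromosome 3 from 57285611 to 57387736.

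Ptx3 encodes pentraxin 3, a secreted pattern recognition protein that binds microbes and matrix and takes part in complement control. Its values were 6.57, 6.29 and 6.31 in stroke arrays and 5.33, 5.34 and 4.90 in control arrays. Stroke arrays lay at least 0.95 above the control arrays, of which array 3 was the lowest. All 3 stroke values but only 1 of the 3 control values exceeded the median of their array, so whether the control signal lay over background is not known and the difference is that of the signals as measured. It was 1.20 ± 0.17 (SE; 95% interval 0.81 to 1.59; limma adjusted p = 0.0362). This call needed all 6 arrays: with any one of them left out the adjusted p was between 0.0532 and 0.174, without both arrays numbered 2 it was 0.0824, and with all clusters in 1 fit 0.101, while the difference stayed between 1.06 and 1.33. Ptx3 lies on chromosome 3 from 66219887 to 66225806.

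The 3 called genes compare with a background of 0.421% of all 29458 genes called higher and 0.00339% called lower (limma, Benjamini-Hochberg adjusted p under 0.05 over all genes). The members' median difference was 0.77, against -0.01 over all genes, and all 9 had a higher mean in stroke, as did 47.2% of all genes. In 6 of the 9 every stroke array was above every control array, an ordering found in 6.34% of all genes. At an unadjusted p under 0.05, 7 of the 9 were higher and 0 lower (limma), against 3.69% of all genes higher. Because the 9 genes were chosen with earlier results of these data known, these shares describe them and are not a test of the set. Averaged over the 9 genes, signal was 6.37, 6.42 and 6.42 in the stroke arrays and 5.50, 5.55 and 5.56 in the control arrays, so the arrays of a group were close together on this average even where single genes were not. In the authors' deposited table, which uses group averages of its own, the same 3 genes had a false discovery rate under 0.05 (0.0146 for S1pr3, 0.0240 for Tm4sf1 and 0.0435 for Ptx3). In that table the fold change of Ptx3 was 1.95 and that of S1pr3 was 3.68.

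**Figure D1:**
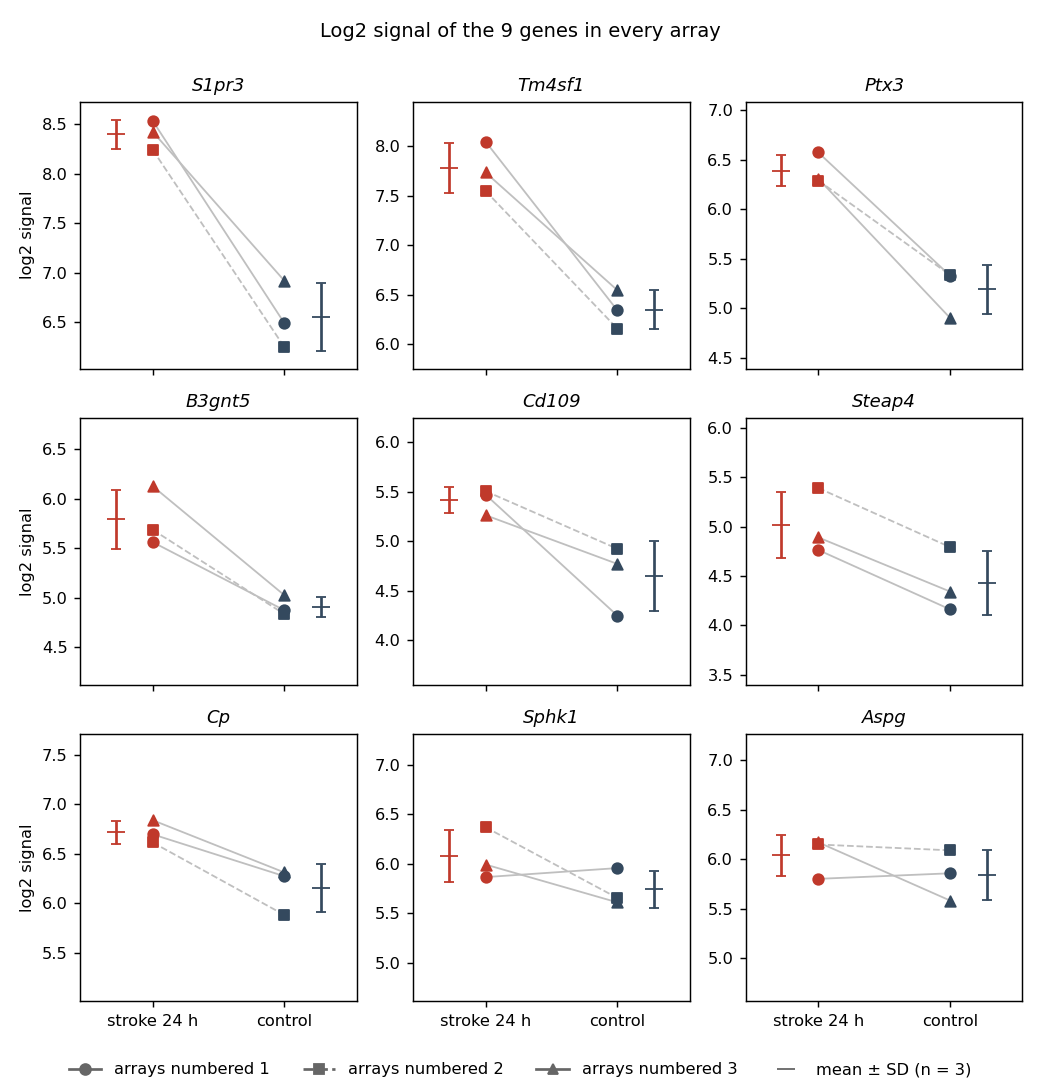
Log2 signal of each of the 9 genes (vertical axes, each spanning the same range) in the 3 stroke arrays on the left and the 3 control arrays on the right of each panel. Symbols mark the array number, grey lines join arrays of the same number, and bars give the mean ± SD of 3 arrays; groups are separate for S1pr3, Tm4sf1, Ptx3, B3gnt5, Cd109 and Cp, and overlap for Steap4, Sphk1 and Aspg.

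**Figure D2:**
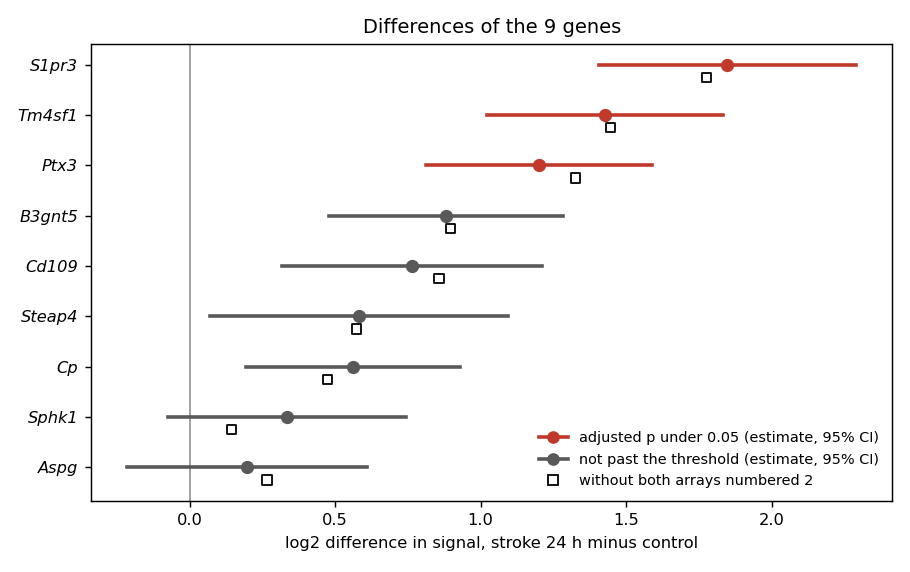
Log2 difference in signal, stroke minus control, with the 95% confidence interval from limma for each of the 9 genes (6 arrays), and as open squares the difference without both arrays numbered 2. S1pr3, Tm4sf1 and Ptx3 (red) passed an adjusted p of 0.05, and the intervals of Sphk1 and Aspg include 0.

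B3gnt5 and Cd109 had separate groups but did not pass. B3gnt5 encodes a Golgi glycosyltransferase that starts the lacto-series chains of glycosphingolipids. It measured 5.56, 5.69 and 6.13 in stroke arrays, against 4.87, 4.83 and 5.03 in control arrays, with a gap of 0.54 between the groups. The difference was 0.88 ± 0.17 (SE; limma adjusted p = 0.133, and 0.0607 with the array number as a block). Its 3 control values were all below their array medians and its 3 stroke values all above.

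Cd109 encodes a cell-surface protein on a lipid anchor, of the alpha-2-macroglobulin family, that binds transforming growth factor beta receptors. It was at 5.47, 5.51 and 5.26 in stroke arrays, against 4.25, 4.92 and 4.77 in control arrays. None of the 3 control values exceeded its array median. All 3 stroke values did, but lay near the medians, so this gene's signal was not shown to be above background. Control array 1 was the lowest of the 6 and made up most of the control spread. The difference of 0.77 ± 0.19 (SE; 95% interval 0.32 to 1.21) did not pass (limma adjusted p = 0.311). Without control array 1 it was 0.57.

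Cp encodes ceruloplasmin, a copper-carrying ferroxidase that loads iron onto transferrin and that astrocytes make both in secreted and in membrane-anchored form. Its signal was 6.70, 6.62 and 6.84 in stroke arrays, against 6.27, 5.88 and 6.31 in control arrays. The groups did not overlap, with a gap of 0.30, and control array 2 was the lowest. The difference was 0.56 ± 0.16 (SE; limma adjusted p = 0.437). It was 0.42 without control array 2 and 0.48 without both arrays numbered 2.

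Steap4 encodes a membrane metalloreductase that reduces iron and copper. Its stroke arrays measured 4.76, 5.39 and 4.89, and its control arrays 4.16, 4.79 and 4.34. The groups overlapped by 0.03, because control array 2 was above stroke array 1. Arrays of the same number nevertheless differed by nearly the same amount, 0.60, 0.60 and 0.55 for numbers 1, 2 and 3. The difference of 0.58 ± 0.22 (SE) had a limma adjusted p of 0.774, and of 0.106 with the array number as a block, so it did not pass in either fit. Only 1 of the 3 stroke values and none of the 3 control values exceeded its array median, so this gene's signal was not shown to be above background.

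Sphk1, the kinase that makes sphingosine 1-phosphate, and Aspg, an asparaginase, were the 2 genes whose intervals included 0. Sphk1 was at 5.87, 6.37 and 5.99 in stroke arrays, against 5.96, 5.66 and 5.61 in control arrays. Stroke array 2 was the highest and stroke array 1 lay below control array 1. The difference was 0.33 ± 0.18 (SE; 95% interval -0.07 to 0.74; limma adjusted p = 0.969), without stroke array 2 it was 0.19, and without both arrays numbered 2 it was 0.15. Aspg was at 5.80, 6.15 and 6.17 in stroke arrays, against 5.86, 6.09 and 5.58 in control arrays. These values overlapped, and the difference was 0.20 ± 0.18 (SE; 95% interval -0.21 to 0.61; adjusted p = 0.9998). It was 0.067 without control array 3, 0.13 without stroke array 3, 0.32 without control array 2 and 0.32 without stroke array 1. The upper bounds leave room for a rise of up to 0.74 for Sphk1 and 0.61 for Aspg.

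The 9 genes did not vary together within a group. In the arrays numbered 2, Steap4 was above its group mean by 0.38 in stroke and 0.36 in control, and Cd109 by 0.09 in stroke and 0.28 in control. In the same arrays S1pr3 stood at -0.16 in stroke and -0.30 in control relative to its group mean, Tm4sf1 at -0.23 in stroke and -0.19 in control, and Cp at -0.10 in stroke and -0.27 in control. Arrays of the same number differed upward in stroke in 3 of 3 numbers for 7 of the 9 genes, as they did in 16.8% of all 29458 genes, and in 2 of 3 for Sphk1 and Aspg, where number 1 gave -0.09 and -0.06. For S1pr3 these differences were 2.04, 1.99 and 1.51, and for Ptx3 1.25, 0.95 and 1.41.

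Among the other genes of the same published astrocyte lists, also chosen with earlier results known, the shares called were as follows. Over all 29458 genes, 0.421% were called higher and 3.69% were higher at an unadjusted p under 0.05 (limma). In 6.34% of all genes every stroke array was above every control array. Of 8 other pan-reactive genes with a cluster of their own, 7 rose and 1 did not pass, with a median difference of 2.44. All 8 were higher at an unadjusted p under 0.05 (limma). The 4 with the largest measured difference were Serpina3n, a secreted protease inhibitor, at 3.29; Timp1, an inhibitor of metalloproteinases, at 3.19; Lcn2, a siderophore-binding lipocalin, at 2.82; and Osmr, a receptor of oncostatin M, at 2.55 (limma adjusted p from 0.000614 to 0.00509). None of the 3 control values of Timp1 (mean 4.95, against 8.15 in stroke) and 2 of the 3 of Lcn2 exceeded their array medians, so their differences are those of the signals as measured and do not rank the genes. Each of these stayed past the threshold without any single array. With the 4 members of that class included, of which S1pr3 alone rose, 8 of 12 rose. Hspb1, a small heat shock protein named after its values were seen, was the one that did not pass, at 7.40 ± 0.78 in stroke and 5.07 ± 0.47 in control (adjusted p = 0.0604, and 0.00810 with the array number as a block). Hspb1 passed without both arrays numbered 2 (limma adjusted p = 0.0366) but not with any one array left out (0.0627 to 0.2935). Only 1 of its 3 control values exceeded its array median. Gfap, the other listed gene, shares its cluster with another symbol and was left out.

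Of 8 other genes induced mainly by ischaemia, 4 rose and 4 did not pass, with a median of 1.07, beside 0.421% of all genes called higher. All 8 were higher at an unadjusted p under 0.05 (limma). The 4 that rose were Tgm1, a transglutaminase, at 2.90, Emp1, a membrane protein of epithelia, at 1.98, Cd14 at 1.87 and Clcf1 at 1.03 (limma adjusted p from 0.00111 to 0.0372). Cd14 is a co-receptor for lipopolysaccharide that is also abundant in myeloid cells, and Clcf1 a cytokine of the interleukin 6 family. Only 1 of the 3 control values of Tgm1 and 2 of the 3 of Cd14 exceeded their array medians. Tgm1 and Emp1 passed without any single array. Cd14 did not pass without control array 1, control array 3 or stroke array 3 (adjusted p up to 0.0932), nor with all clusters in 1 fit (0.0577). Clcf1 did not pass with any one array left out (0.0702 to 0.193), without both arrays numbered 2 (0.147) or with all clusters in 1 fit (0.102). Stat3, a transcription factor of cytokine signalling named after its values were seen, was 1.02 higher (adjusted p = 0.0519, and 0.0450 with the array number as a block). With the 5 members of that class included, 6 of 13 rose. Without both arrays numbered 2 the counts were 5 of 8 for the pan-reactive and 3 of 8 for the ischaemia list, beside 2 of the 9 members and 70 of all 29458 genes.

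Of 10 measured genes that lipopolysaccharide induces in mouse astrocytes, 2 rose and 8 did not pass (median 0.52), beside 0.421% of all genes called higher. All 10 had a higher mean in stroke, 8 were higher at an unadjusted p under 0.05 (limma), and 8 had separate groups. The 2 that rose were Srgn, a proteoglycan core protein of leukocyte granules, at 1.46 (limma adjusted p = 0.00809, and 0.0624 without stroke array 1) and Serping1, the C1 inhibitor, at 0.91 (adjusted p = 0.0415). Serping1 did not pass with any one array left out (0.0628 to 0.224), under quantile normalization (0.0783), with all clusters in 1 fit (0.103) or without both arrays numbered 2 (0.0917). Differences between these lists were not tested.

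**Figure D3:**
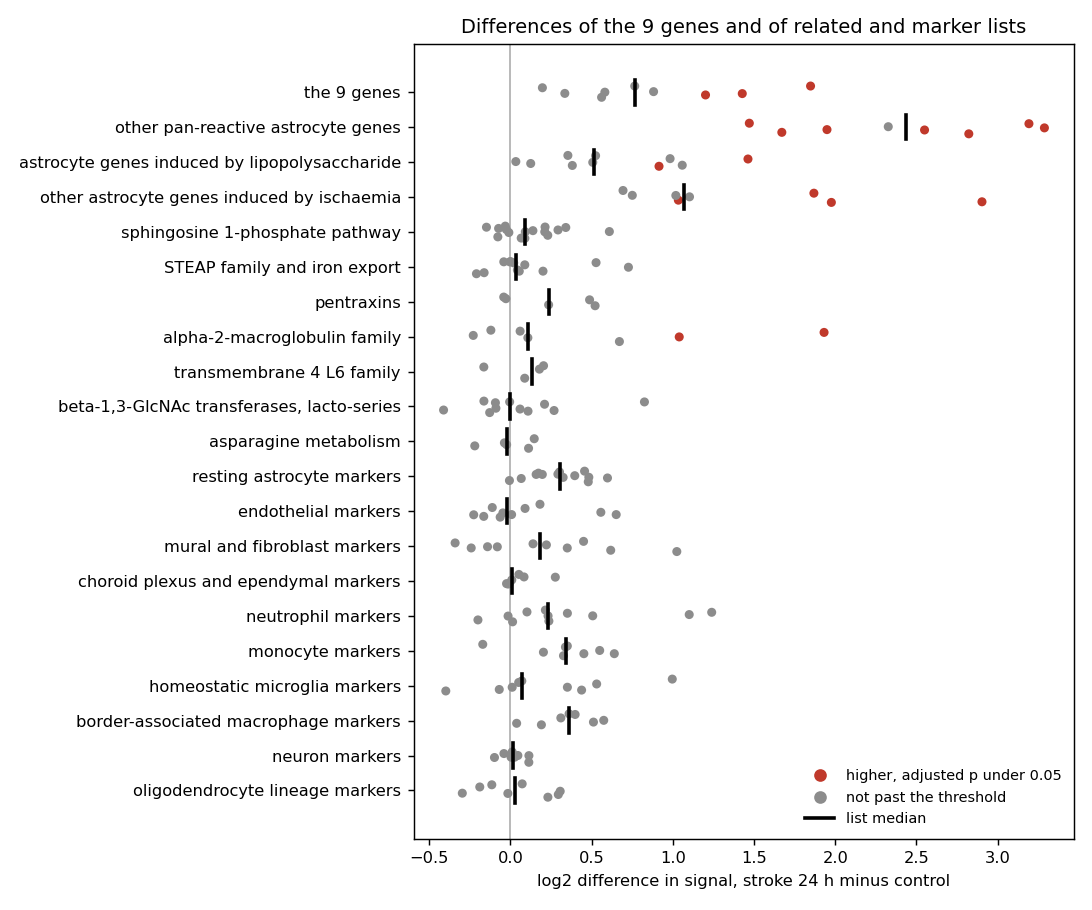
Log2 difference in signal, stroke minus control, for each measured gene (points) of the 9 genes, of related gene lists and of cell type marker lists, with list medians as black bars and vertical scatter only for legibility. Red points passed an adjusted p of 0.05: 3 of 9 in the top row, 7 of 8 other pan-reactive genes, and 0 in each marker list.

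S1pr3 and Sphk1 belong to the sphingosine 1-phosphate pathway, in which sphingosine kinases make the lipid, transporters release it, receptors S1pr1 to S1pr5 detect it, and lyases and phosphatases remove it. Of 16 other genes of this pathway, 0 rose and 0 fell (limma; 1 higher at an unadjusted p under 0.05), with a median of 0.09. The brightest were Plpp3, a lipid phosphatase, at 10.03 ± 0.15 in stroke and 9.82 ± 0.28 in control, and Spns2, an exporter of the lipid, at 9.50 ± 0.24 in stroke and 9.27 ± 0.45 in control (adjusted p = 0.9998 for both). S1pr2, a receptor named here after its values were seen, was the only one of the 16 with separate groups, at 6.997 ± 0.09 in stroke and 6.39 ± 0.06 in control (adjusted p = 0.168). Among the measured genes of this pathway, Sphk1 included, S1pr3 alone passed.

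Cp and Steap4 act on iron and copper. Of 12 other genes of the STEAP family and of iron transport and storage, 0 rose and 0 fell (limma; 2 higher at an unadjusted p under 0.05; median 0.03). Fth1, the ferritin heavy chain, was at 13.48 ± 0.11 in stroke and 13.44 ± 0.10 in control (adjusted p = 0.9998). Trf, transferrin, which oligodendrocytes also make, was at 11.45 ± 0.18 in stroke and 10.72 ± 0.18 in control (adjusted p = 0.190).

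In the family of Cd109, 2 of 7 other measured genes rose and 5 did not pass (median 0.11), beside 0.421% of all genes called higher. A2m, the protease trap alpha-2-macroglobulin, stood at 7.14 ± 0.26 in stroke and 5.21 ± 0.30 in control, a rise of 1.93 with 1 of 3 control values above its array median (adjusted p = 0.0112), and did not pass without control array 1, control array 3 or stroke array 3 (up to 0.0812). C4b, complement component 4, stood at 7.09 ± 0.03 in stroke and 6.05 ± 0.21 in control, a rise of 1.04 (adjusted p = 0.0364), and did not pass with any one array left out (0.0655 to 0.181), without both arrays numbered 2 (0.104) or with all clusters in 1 fit (0.101).

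For the remaining families, no other gene passed. Of 5 other pentraxins and partners, 0 rose and 0 fell (limma; 1 higher at an unadjusted p under 0.05). Nptx1 and Nptx2, neuronal pentraxins, differed by 0.24 and 0.52 (adjusted p = 0.9998 and 0.922). With 1 array left out, Nptx1 was between 0.096 (without stroke array 2) and 0.43 (without stroke array 1), and Nptx2 between 0.25 and 0.71 without the same arrays. Of 4 relatives of Tm4sf1, 0 rose or fell, also at an unadjusted p under 0.05 (limma), and Tm4sf19 and Tm4sf5 differed by 0.20 (0.062 to 0.31 with 1 array left out) and 0.18 (0.035 to 0.39). Of 11 genes of the B3gnt family and of lacto-series synthesis, 0 rose and 0 fell (limma; 1 higher and 1 lower at an unadjusted p under 0.05), with B4galt6 and B4galt5 at -0.09 and 0.11. Of 5 genes of asparagine and aspartate metabolism, 0 rose or fell, also at an unadjusted p under 0.05 (limma), with Got2 and Got1 at 0.11 and -0.04.

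Because the 9 genes are also active outside astrocytes, marker lists of other cell types were read in the same arrays. None of 10 endothelial and 10 mural and fibroblast markers passed (limma; 1 and 3 were higher at an unadjusted p under 0.05), with medians of -0.02 and 0.18. The mean signal of the endothelial list was 5.41 to 6.07 in stroke and 5.43 to 5.88 in control. That of the mural and fibroblast list was 7.03 to 7.25 in stroke and 6.84 to 6.97 in control. None of 11 neutrophil, 8 monocyte and 7 border-associated macrophage markers passed (3, 3 and 4 were higher at an unadjusted p under 0.05), with medians of 0.23, 0.34 and 0.36. Mean signal was 4.99 to 5.03 in stroke and 4.55 to 4.79 in control for neutrophil markers, 5.08 to 5.49 in stroke and 4.91 to 5.04 in control for monocyte markers, and 5.79 to 5.94 in stroke and 5.49 to 5.55 in control for border-associated macrophage markers. With the array number as a block, 2 of the 11 neutrophil markers passed, beside 0.519% of all 29458 genes called higher in that fit. They were the calprotectin genes S100a8 and S100a9, 1.24 and 1.10 higher in stroke (limma adjusted p = 0.0165 and 0.0432, against 0.111 and 0.257 without the block). Without both arrays numbered 2 and with no block, S100a8 passed (limma adjusted p = 0.0393) and S100a9 did not (0.369), beside 70 of all 29458 genes called higher. Their control values were all below their array medians, and they were named after their values were seen. Of the 11 markers, 9 had a higher mean in stroke, and the lowest difference was -0.20. Neuron, oligodendrocyte lineage and choroid plexus lists had medians of 0.02, 0.03 and 0.01, with 0 genes called in each (limma). The part of any of these cell types in the differences of the 9 genes was not tested.

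By Pearson correlation over the 6 arrays with the mean profile of the 9 genes, each gene centred on its own mean, the most similar named genes were Anxa2, Msn, Ccl12, Clic1 and Ccl11, with r from 0.9951 to 0.9998. Anxa2, a membrane-binding annexin, was at 7.77, 7.89 and 7.84 in stroke arrays and 6.12, 6.25 and 6.26 in control arrays. Msn, the actin linker moesin, differed by 1.91, Clic1, an intracellular chloride channel protein, by 1.58, Ccl12, a ligand of the chemokine receptor CCR2, by 3.19, and Ccl11, the chemokine eotaxin, by 1.22. Since the 2 groups are separate in the profile, this measure reads mainly the group difference. Among the members, r with the profile, to which each contributes, was highest for S1pr3 (0.972) and lowest for Aspg (0.477).

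**Figure D4:**
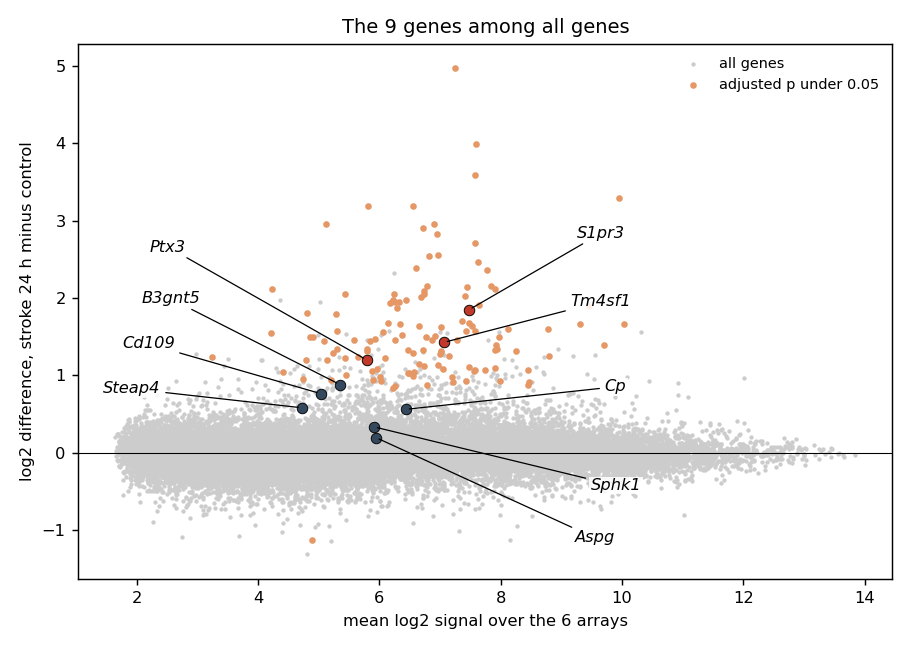
Log2 difference, stroke minus control, against mean log2 signal over the 6 arrays for all 29458 genes (grey), those with an adjusted p under 0.05 (orange) and the 9 genes (labelled; red where called). S1pr3, Tm4sf1 and Ptx3 lie among the called genes, and the other 6 lie above 0 within or at the edge of the uncalled genes.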

How the data were processed

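Ribosome-bound RNA was measured on 3 stroke and 3 control arrays, grouped by their titles. The value table, deposited by the authors, holds log2 signals per transcript cluster, processed in Transcriptome Analysis Console 3.0 per the labels, with annotation na36 on mm10 per the file headers. The authors' deposited table of stroke against control holds log2 group averages, a fold change (a score, negative where stroke is lower), a p-value and its false discovery rate, per the file headers. Summarisation, normalization and that table's test: not given in the sources used here.

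Symbols came from that table. Of 41345 clusters, 29971 had 1 symbol and covered 29458 genes, with the brightest cluster kept for 381 symbols. No dim genes were removed. limma 3.58.1 in R 4.3.3 (lmFit, eBayes) compared groups, and p-values were adjusted over all genes by Benjamini-Hochberg (threshold 0.05). The members, the 20 other lists and the alternatives were chosen with earlier results of these data known. Named are all 9 members, up to 4 called genes (or the 2 brightest) of each related list, the 5 genes most like the members, Itgam and Rpl10a, and, after their values were seen, Hspb1, Stat3, S1pr2, S100a8 and S100a9; gene models, small RNAs and receptor families were passed over for likeness. Of the 9 members, 8 had promoters in the RefSeq table.

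Same-numbered arrays deviated together across genes (r = 0.299, 0.576 and 0.390, and -0.460 to 0.237 for unlike numbers), so the array number was also fitted as a block. Deviations were taken from the mean of 3 arrays, so arrays numbered 2 that stand apart also shape the other values. Stroke array 1 had r = 0.237 with control array 3, near its 0.299 with control array 1. These values therefore do not show that all numbers pair, and the labels name no shared litter or day. On simulated data with 29458 genes, the procedure called 39% of genes changed by 1 and 86% of genes changed by 2 on the log2 scale, and 8 of 29258 unchanged genes. The simulated noise was independent between genes and arrays. It lacked the shared deviations of same-numbered arrays, so these rates need not hold for the measured data.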

Additional observations from a re-analysis of the deposited data

How the results depend on the processing

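With all 18 alternatives, each of the 9 genes that an alternative retained stayed higher in stroke. The 3 called members were also 3 under quantile normalization, median centring, both filters on dim genes, the replicate block, and trend and robust moderation. They were also 3 with array weights, the mean over clusters and the fit of all clusters with a symbol. The filter at the median left out Steap4, Cd109 and B3gnt5. It used the mean over all 6 arrays, stroke arrays included. Ptx3 stood at percentile 51.7 of that mean, and its stroke values raised it. Its pass of this filter is therefore not independent of its difference. The called members were 1 (S1pr3) with all clusters in 1 fit, which tests more features, and 0 without moderation (6 at an unadjusted p under 0.05). They were 2 without both arrays numbered 2, and 0 to 2 without 1 array. None was lower in any fit. Over all genes, 124 were higher: 214 with array weights, 36 with all clusters, 0 without moderation (1130 at an unadjusted p under 0.05), 70 without both arrays numbered 2, of which, with any lower gene, 57 were among those called with all arrays, and 25 to 73 without 1 array (25 without control array 1, 73 without control array 2, 40 without control array 3, and 28, 63 and 29 without stroke arrays 1, 2 and 3). The 1 lower gene became 3 with the replicate block and with array weights, and 0 with all clusters, without moderation (711 at an unadjusted p under 0.05) and without both arrays numbered 2, and 0 to 1 without 1 array. The replicate block changed no call among the 9 genes. Small differences of uncalled genes turned sign: Tm4sf5 (-0.014 with array weights), Got1 (0.0084 with median centring), and, without 1 array, Spns2 (-0.033 to 0.37), Fth1 (-0.012 to 0.10), B4galt5 (-0.061 to 0.25, with -0.015 in a second fit) and Rpl10a (-0.0010 to 0.15). Apart from the fits named, the cause of a lost call was not tested. No detection calls were used, so dim signals, such as those of Steap4, Cd109, B3gnt5, Ptx3 and Timp1 in control, carry no measure of signal over background.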
